A study of Mus musculus with 6 samples.

Results

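The 10 genes described here, Fos, Fosb, Jun, Junb, Egr1, Arc, Nr4a1, Dusp1, Ier2 and Btg2, are immediate early genes, taken as a list of names and all present among the 20234 genes of the deposited count table. They were followed in 1632 of 6000 cell barcodes, namely those with more than 500 and at most 8000 detected genes and at most 40% of their transcripts from mt- genes, the genes of the mitochondrial genome. The barcodes come from CA1, a pyramidal cell field of the hippocampus, of male C57Bl6 mice at postnatal day 28. Mice 1, 3 and 5 had been given placebo and mice 2, 4 and 6 a single dose of 5000 IU/kg recombinant human erythropoietin (EPO), 6 h before the tissue was collected. Sample names add D1 or D2 to each mouse without saying what it means. D1 stands with placebo mice 1 and 3 and with EPO mouse 2, D2 with the other 3 mice. No mouse carried a transgene or deletion according to the labels. Cells were captured by Drop-seq, in which each transcript is tagged with the barcode of its cell and with a unique molecular identifier (UMI), so that a UMI count is a count of captured transcripts. All tissue was digested with papain before capture, so transcription in the living animal and transcription during that step cannot be told apart.

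Immediate early genes are transcribed within minutes of a stimulus, before any new protein is made, mostly through serum response factor (SRF) bound with its ternary complex partners and through cAMP response element binding protein (CREB). In hippocampal pyramidal neurons synaptic activity switches them on, and many other cells use the same genes in response to growth factors or stress. Fos, Fosb, Jun and Junb encode subunits of the transcription factor AP-1, Egr1 encodes a zinc finger transcription factor and Nr4a1 an orphan nuclear receptor. Arc encodes a protein that acts at synapses on glutamate receptor trafficking. Dusp1 encodes a phosphatase of mitogen-activated protein kinases, Btg2 an antiproliferative protein and Ier2 a nuclear protein.

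The promoters of the 10 genes were searched for the recognition letters of these 2 arms. RefSeq promoters (GRCm38.p6) were matched for 7 of the 10 genes. A core CREB site, TGACG on either strand, lay in the 250 bases before the start of 6 of these 7, compared with 17.8% of 32851 promoters of that length, and 4 of the 6 held more than 1. The full cAMP response element, TGACGTCA, which contains a core site on each strand, lay in those of Btg2 and Dusp1 and in 1.55% of all promoters. The CArG box, the core of the SRF site, lay in none of the 7 within this window and in 1.47% of all promoters. The stretches that hold the core sites are shown 5′ to 3′ on the strand of the gene, with the core sites in capitals (read as CGTCA where the site is on the other strand).
Fos (chr12:85473751-85473838, plus strand): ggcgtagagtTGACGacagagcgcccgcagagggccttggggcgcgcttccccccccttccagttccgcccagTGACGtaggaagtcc
Fosb (chr7:19310091-19310115, minus strand): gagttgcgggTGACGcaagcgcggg
Junb (chr8:84978840-84978864, minus strand): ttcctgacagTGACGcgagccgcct
Btg2 (chr1:134079304-134079331, minus strand): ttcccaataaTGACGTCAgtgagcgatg
Dusp1 (chr17:26508598-26508673, minus strand): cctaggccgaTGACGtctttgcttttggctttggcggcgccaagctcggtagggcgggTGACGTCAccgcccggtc
Nr4a1 (chr15:101266603-101266820, plus strand): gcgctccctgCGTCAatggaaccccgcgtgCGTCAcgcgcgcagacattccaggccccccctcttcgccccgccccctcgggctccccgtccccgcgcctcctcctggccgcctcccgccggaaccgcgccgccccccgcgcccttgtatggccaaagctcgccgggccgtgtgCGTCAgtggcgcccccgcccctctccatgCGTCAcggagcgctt
Nr4a1 held 4 core sites, Dusp1 3, Fos and Btg2 2 each, and Fosb and Junb 1 each. Jun, the other gene matched, held none in this window. A match is a description of the letters and not a bound site.

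The 1632 cells were 275, 90 and 319 in placebo mice 1, 3 and 5 and 253, 405 and 290 in EPO mice 2, 4 and 6. Depth ranged from 267231 UMIs (placebo mouse 3) to 2150763 UMIs (EPO mouse 4), and the median mt- share from 4.61% (EPO mouse 6) to 19.0% (EPO mouse 2). Placebo mouse 3, with the fewest cells, gives the least precise values. Haemoglobin and Alas2 transcripts (5 blood markers) were found in every mouse, at 633 to 6219 per 1000000 UMIs (CPM). Placebo mouse 1 and EPO mouse 4 shared 53 barcodes that no other mouse held, while any other pair of mice shared at most 9. Of the 405 cells of EPO mouse 4, 43 carried such a barcode. In 41 of these the partner was kept too, and in 41 of 41 the partner was the most similar cell of placebo mouse 1 and fell in the same class, with a median correlation of 0.70 against 0.34 with other cells of that class. The cells of EPO mouse 4 held a median of 24.8% of the UMIs of their partners. These 43 cells held 104 of the 1146 immediate early gene UMIs of EPO mouse 4. The main comparisons were repeated without the cells of shared barcodes in both mice, which also takes the mostly deeper partners out of placebo mouse 1.

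Over all 1632 cells the 10 genes had 4100 UMIs, and 53.9% of the cells held at least 1 (exact 95% interval 51.4 to 56.3%, counting error only). Egr1 supplied 41.2% of these UMIs and Jun 22.9%, followed by Junb with 11.5% and Nr4a1 with 7.51%. Arc and Fos supplied 4.59% and 4.10%, and Btg2, Ier2, Dusp1 and Fosb at most 2.54% each. Egr1 was found in 426 cells and Jun in 419, whereas Fosb, the rarest, was found in 45. A single cell held up to 124 UMIs of the 10 genes together and up to 48 of Egr1.

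Cells were clustered without the 10 genes, and clusters were named from standard markers. The classes were glutamatergic-like (847 cells), astrocyte-like (231), oligodendrocyte-like (161), microglia-like (98), endothelial-like (91), GABAergic-like (80), oligodendrocyte precursor-like (72) and mural-like (52, pericytes and smooth muscle). The 8 glutamatergic markers, Slc17a7 and Camk2a among them, summed to 3029 CPM in the glutamatergic-like class and to 89.6 to 279 CPM in the others. Each of the other 7 marker lists also had its highest sum in its own class. The names rest on these markers, so the sums are no separate check of them. The mean log2 fold of a cluster's markers was 0.21 to 1.10 in glutamatergic-like clusters and 1.84 to 7.65 in the others. Because no annotation of the cells was used, class names were rebuilt from the counts. Microglia-like cells were absent from placebo mouse 5, and classes with at least 10 cells in a mouse are compared within mice.

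Egr1 was the gene of the glutamatergic-like class. It stood at 327, 322 and 309 CPM in glutamatergic-like cells of placebo mice 1, 3 and 5 and at 232, 333 and 269 CPM in those of EPO mice 2, 4 and 6. In every mouse this was far above the astrocyte-like class, where Egr1 averaged 6.72 ± 8.31 CPM (SD, n = 6), and above the oligodendrocyte-like class, where it averaged 15.5 ± 15.7 CPM (n = 6). The within-mouse difference on the log2(CPM + 10) scale was 4.34 ± 0.65 to astrocyte-like and 3.85 ± 0.84 to oligodendrocyte-like cells, with the same direction in 6 of 6 mice. It was 3.70 ± 0.88 to GABAergic-like cells in 4 of 4 mice, which separated the principal cells from inhibitory neurons. These differences were chosen after their values were seen and carry no test.

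When each cell was thinned to 1000 UMIs to remove depth, Egr1 was found in 19.0% of glutamatergic-like cells and in 0.78% of astrocyte-like, 1.07% of oligodendrocyte-like and 2.41% of GABAergic-like cells. Without thinning the shares were 45.2% of glutamatergic-like cells, at a median of 3686 UMIs, and 1.73% of astrocyte-like cells, at a median of 1723 UMIs. The background share of free RNA was not measured for each class, so no expression is read from the low shares. Mural-like and microglia-like cells came next to the glutamatergic-like class, at 160 ± 63.9 CPM (n = 3) and 115 ± 120 CPM (n = 5). The mural-like mean rested on only 2, 5 and 3 UMIs in placebo mouse 1 and EPO mice 4 and 6, and the microglia-like mean on 23 UMIs.

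Arc and Nr4a1 were carried mainly by glutamatergic-like cells as well. Arc averaged 32.5 ± 13.8 CPM there (n = 6) and was higher than in astrocyte-like and in oligodendrocyte-like cells in 6 of 6 mice, by 1.76 ± 0.65 and 0.71 ± 0.50 on the log2 scale. No Arc UMI was found in 80 GABAergic-like cells, where 3 counts, the limit that a count of 0 allows, would be 3.75% of cells with an Arc UMI, or in 98 microglia-like cells, where they would be 3.06%. These limit the cells with a UMI and not the cells that express Arc. Nr4a1 averaged 45.0 ± 23.1 CPM in glutamatergic-like cells and exceeded the astrocyte-like and oligodendrocyte-like classes in 6 of 6 mice, by 2.14 ± 0.81 and 2.24 ± 0.74. Oligodendrocyte precursor-like cells held Nr4a1 at 43.0 ± 19.1 CPM in 3 mice, a level close to the neuronal one. That mean rested on 1, 4 and 2 UMIs in placebo mouse 1 and EPO mice 4 and 6. Over all mice this class held 9 Nr4a1 UMIs in 9 of 72 cells.

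Jun was highest in microglia-like and endothelial-like cells. It averaged 390 ± 88.3 CPM in microglia-like cells (n = 5) and 358 ± 75.1 CPM in endothelial-like cells (n = 5), but 184 ± 17.3 CPM in oligodendrocyte-like, 148 ± 53.9 CPM in astrocyte-like and 82.4 ± 29.1 CPM in glutamatergic-like cells (each n = 6). In 6 of 6 mice it was lower in glutamatergic-like than in oligodendrocyte-like cells, a log2 difference of -1.14 ± 0.51. The oligodendrocyte-like level was the steadiest of all, between 169 and 210 CPM over the 6 mice, and 78.4% of this class's immediate early gene UMIs were Jun.

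Junb, the AP-1 partner, was shared between microglia-like cells at 162 ± 115 CPM (n = 5), endothelial-like cells at 83.7 ± 41.1 CPM (n = 5) and glutamatergic-like cells at 72.6 ± 20.9 CPM (n = 6). It was nearly absent from oligodendrocyte-like cells, where 1 UMI was found in 161 cells. The log2 difference of Junb between glutamatergic-like and oligodendrocyte-like cells was 2.91 ± 0.37, with 6 of 6 mice in this direction.

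Ier2 and Btg2 belonged to vessel and immune classes. Ier2 in endothelial-like cells stood at 173 and 258 CPM for placebo mice 1 and 5 and at 85.0, 87.9 and 184 CPM for EPO mice 2, 4 and 6, while it averaged 5.22 ± 5.10 CPM in glutamatergic-like cells. All of these endothelial values lay above all glutamatergic ones. Placebo mouse 3, with 9 endothelial-like cells and no Ier2 UMI in them, was left out for too few cells. Btg2 in microglia-like cells stood at 161 and 0 CPM for placebo mice 1 and 3 and at 202, 169 and 172 CPM for EPO mice 2, 4 and 6, and in endothelial-like cells it averaged 81.7 ± 67.2 CPM (n = 5). Placebo mouse 3, which had no Btg2 UMI in microglia-like cells, had 11 such cells. Glutamatergic-like cells held Btg2 at 8.15 ± 4.94 CPM (n = 6).

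Fos, Fosb and Dusp1 were sparse everywhere. Fos averaged 18.3 ± 9.59 CPM in glutamatergic-like cells and 81.2 ± 110 CPM in mural-like cells (n = 3). All 11 Fos UMIs of the mural-like class came from 5 cells of the 22-cell cluster 14, which belongs to that class. Of these 11 UMIs 7 lay in placebo mouse 5, whose 9 mural-like cells were too few to enter the mean. In astrocyte-like cells 16 Fos UMIs came from 4 cells, and 13 of the 16 UMIs lay in placebo mouse 5. Fosb had 56 of its 64 UMIs in glutamatergic-like cells, which held 68.9% of all UMIs, at 9.86 ± 4.23 CPM (n = 6). None was found in endothelial-like, GABAergic-like or oligodendrocyte precursor-like cells. The 3 counts that a count of 0 allows would be 11.7, 8.11 and 15.1 CPM there, so no absence of Fosb is read from these classes. Dusp1 averaged 7.62 ± 4.21 CPM in glutamatergic-like cells and 50.02 ± 60.4 CPM in endothelial-like cells, and its mice overlapped between these classes.

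**Figure D1:**
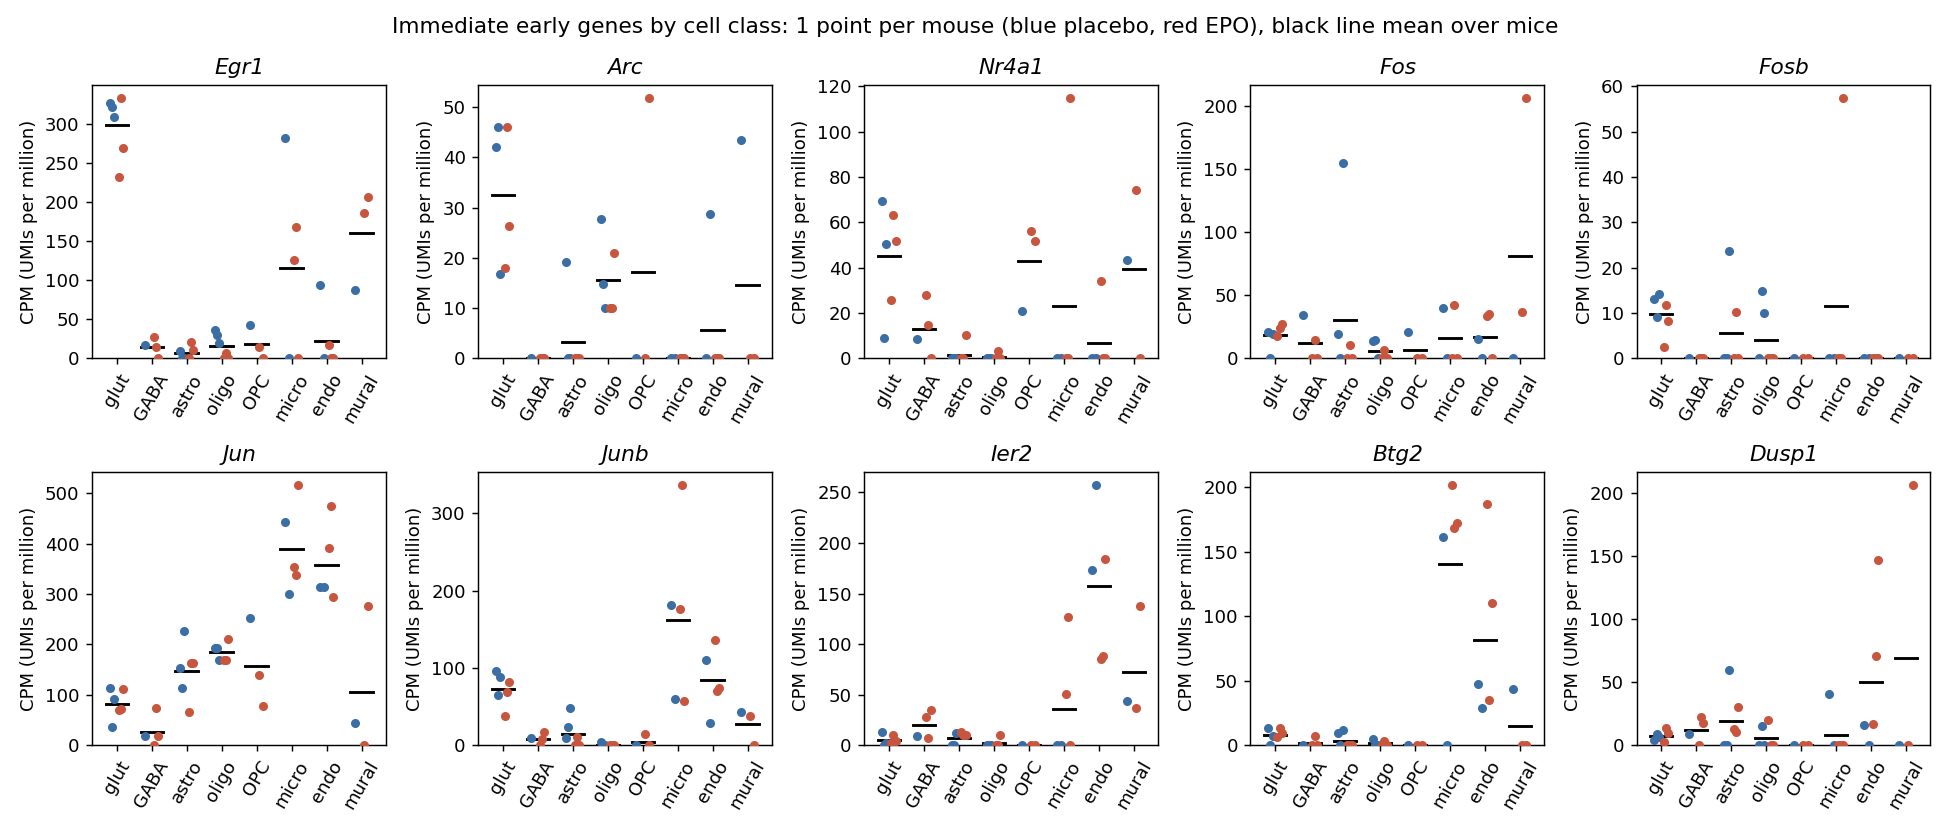
CPM of each gene (y axis, 1 panel a gene) in the 8 classes (x axis), with 1 point for each mouse with at least 10 cells of the class, blue for placebo and red for EPO, and a black line at the mean over mice. Egr1 in glutamatergic-like cells lies between 232 and 333 CPM, above the other classes in most mice. By the means, Btg2 is highest in microglia-like and Ier2 in endothelial-like cells, and Jun is high in both of these classes.

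The highest class of each gene was compared with the next class in its order by a two-sided exact sign-flip permutation test over mice. The order was taken from the mean CPM of these same mice, so the direction was partly set by the choice. Few mice held 10 cells of both classes, and the smallest p was 0.25 with 3 mice, 0.125 with 4 and 0.0625 with 5. The genes with the same direction in each mouse compared were Ier2 between endothelial-like and mural-like cells (1.07 ± 0.69, 3 of 3 mice, p = 0.25, adjusted p = 0.50, exact permutation), Btg2 between microglia-like and endothelial-like cells (1.07 ± 0.87, 4 of 4 mice, p = 0.125, adjusted p = 0.50, exact permutation), Egr1 between glutamatergic-like and mural-like cells (0.99 ± 0.73, 3 of 3 mice, p = 0.25, adjusted p = 0.50, exact permutation) and Nr4a1 between glutamatergic-like and oligodendrocyte precursor-like cells (0.50 ± 0.74, 3 of 3 mice, p = 0.25, adjusted p = 0.50, exact permutation). For Fosb and Dusp1 the mean within-mouse difference, -0.34 and -1.30, went against the order of the means, so their highest class is not settled. Nor is that of Jun, which was higher in microglia-like than in endothelial-like cells in 2 of 4 mice (0.16 ± 0.58). With cells of more than 1000 genes the highest class stayed as given for 3 of the 10 genes, and without the cells of shared barcodes for 9.

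The sum of the 10 genes was higher in glutamatergic-like than in oligodendrocyte-like cells in 6 of 6 mice, by 1.29 ± 0.32 log2 units (log2 of CPM with no pseudocount, and 1.26 ± 0.32 with the pseudocount of 10), and by 1.15 without the cells of shared barcodes. It averaged 580 ± 108 CPM and 236 ± 38.9 CPM in these classes. Microglia-like and endothelial-like cells had still higher sums, 903 ± 328 CPM and 783 ± 87.1 CPM (n = 5 each), with Jun as their leading gene, and GABAergic-like cells had the lowest, 109 ± 36.7 CPM (n = 4). Over 38 sums of 1 class in 1 mouse, the genes whose log2(CPM + 10) followed this summed level most closely, among 4071 genes, were Ptbp3 (Pearson's r = 0.77), Itsn2 (0.75), Rap1b (0.73), B2m (0.72), Fgfr1op2 (0.70), Myh9 (0.70), Mylip (0.70), Tapbp (0.70), Serinc3 (0.70) and Chmp3 (0.69). Sums of 1 mouse share its library and depth.

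The glutamatergic-like class was itself uneven. Egr1 stood at 406 ± 95.3 CPM (n = 5 mice) in cluster 4, led by Spink8, Hpca, Rprml and Calm2, and at 308 ± 129 CPM (n = 3) in cluster 8, led by Slc17a6, Nts, Vsnl1 and Ncald. It was 257 ± 73.9 CPM (n = 5) in cluster 3 (Thsd4, Fibcd1, D3Bwg0562e and Sema3e), 175 ± 63.2 CPM (n = 6) in cluster 2 (Cpne7, Pkp2, Chrd and Epha6) and 136 ± 54.7 CPM (n = 5) in cluster 1 (Rxfp1, Tshz2, Tshz3 and Garnl3). Spink8 and Fibcd1 are known as markers of CA1 pyramidal cells. Nr4a1 was flatter over the same 5 clusters, between 36.5 and 56.5 CPM. The clusters also differed in mt- share, with a median of 3.77% in cluster 4 against 21.5% in cluster 1, and in depth, with a median of 10897 against 2663 UMIs. The part of these in the level was not tested.

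Over 24 sums of 1 glutamatergic-like cluster in 1 mouse, the genes closest to the summed level among 3549 were Myl6 (r = 0.86), Tppp (0.85), Glrx5 (0.83), Hsp90ab1 (0.82), Bzw2 (0.81), Usmg5 (0.81), Pnmal2 (0.81), Skp1a (0.81), Hspa8 (0.81) and Pnpla8 (0.81). Hsp90ab1 and Hspa8 encode abundant heat shock family chaperones. Egr1 itself followed the sum it belongs to with r = 0.91, Junb with 0.76 and Jun with 0.29.

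The next question was whether the genes lie in the same cells. In cells thinned to 1000 UMIs, 89.3 of 1543 cells held 2 or more of the genes (mean over 20 draws), where 75.0 were expected if the genes were independent within each mouse and class. The ratio of observed to expected was 1.16 ± 0.11 (SD, n = 6 mice) and lay above 1 in 5 of 6 mice. It was 1.22, 0.96 and 1.23 in placebo mice 1, 3 and 5 and 1.16, 1.14 and 1.27 in EPO mice 2, 4 and 6. Only placebo mouse 3, with 82 cells, lay below 1. In glutamatergic-like cells alone the ratio was 1.26 ± 0.08, above 1 in 6 of 6 mice, and in the other 710 cells it was 1.00 ± 0.27, above 1 in 4 of 6 mice. The difference between these cell sets was not tested. With independence taken within each glutamatergic-like cluster in place of the class, the ratio in glutamatergic-like cells was 1.24 ± 0.18, above 1 in 6 of 6 mice. Glutamatergic-like cells with 3 or more of the genes were then 13.3 where 5.40 were expected, above expectation in 4 of 6 mice. The thinning counted mt- UMIs, so a cell with a high mt- share kept fewer other UMIs. Over all classes, cells with 3 or more of the genes were 20.4 where 7.30 were expected within mouse and class. Without the cells of shared barcodes in both mice the ratio was 1.16 ± 0.11 again.

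The ratio differed with the depth of thinning, which also changed the cells counted, from 1632 at 500 UMIs to 1032 at 2000. The parts of depth and of the cells counted were not tested. Thinned to 500 UMIs the ratio was 1.38 ± 0.22, above 1 in 6 of 6 mice, and thinned to 2000 UMIs, which leaves 1032 cells, it was 0.99 ± 0.05, above 1 in 2 of 6 mice, with 1.02 ± 0.03 in glutamatergic-like cells. At 2000 UMIs cells with 3 or more of the genes were still 44.1 where 26.2 were expected, and higher than expected in 5 of 6 mice. An excess of cells with 2 or more genes was therefore not seen at each depth, whereas the excess of cells with 3 or more was.

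The pairs were then counted singly. Of the 45 pairs, 9 had an expected number of at least 3 cells, and 8 of these were observed more often than expected, with a median ratio of 1.64. Egr1 with Nr4a1 was observed in 13.7 cells and expected in 8.09, higher in 6 of 6 mice. Egr1 with Junb was observed in 17 and expected in 10.2 cells, Egr1 with Arc in 7.5 and 4.26 cells and Egr1 with Fos in 7.75 and 3.27 cells, each higher in 5 of 6 mice. At 2000 UMIs these 4 ratios were 1.41, 1.46, 1.5 and 1.91.

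Pairs with Jun were mixed. Jun with Btg2 was observed in 7.1 cells and expected in 4.33, and Jun with Fos in 4.15 and 1.96 cells. Jun with Egr1 had a ratio of 1.18 at 1000 UMIs and of 0.94 at 2000, Jun with Nr4a1 0.91 and 0.98, and Jun with Arc, expected in 6.06 cells at 2000 UMIs, was observed in 2.85, a ratio of 0.47. In glutamatergic-like cells Jun and Egr1 were observed together in 10.7 cells where 10.6 were expected. The pairs share genes and cells, so these ratios are a description.

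**Figure D2:**
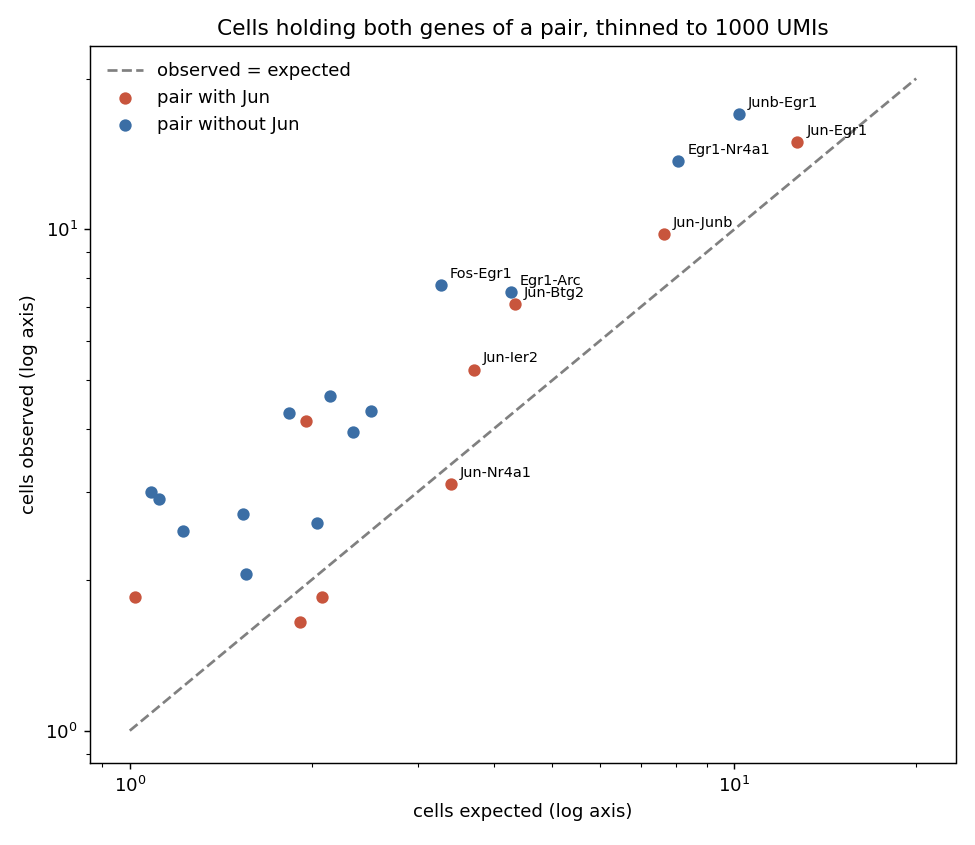
Number of cells in which both genes of a pair were found (y axis, log scale) against the number expected if the genes were independent within mouse and class (x axis, log scale), in cells thinned to 1000 UMIs; points are pairs with an expected number of at least 1 cell, red with Jun and blue without, and the dashed line marks equality. Pairs without Jun lie above the line, with Egr1 and Nr4a1 at 13.7 against 8.09 cells, and Jun with Nr4a1 lies below it.

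A second set of genes bears on the same cells. Glutamatergic-like cells with 2 or more UMIs of the 10 genes after thinning were compared with cells that had none, within the 4 mice that had at least 10 cells on both sides (placebo mice 1 and 5, EPO mice 4 and 6). The groups held 10, 33, 32 and 14 cells with such UMIs. No gene passed an adjusted p of 0.05 in edgeR's quasi-likelihood test with the mouse as block. Of 5413 genes tested 0 were called (0%), 377 had an unadjusted p under 0.05, and DESeq2 called 2. The fit with cells chosen after thinning to 2000 UMIs, which took in EPO mouse 2 as well, called 12. Of these, Bdnf, Chgb, Neurod6, Nr4a3, Rgs4 and Wfs1 were higher in the cells with such UMIs. Lower in them were Cpne7, Hbb-bs, Wdr60, mt-Co1, mt-Cytb and mt-Nd5. Cpne7 is a leading gene of cluster 2, and the part of cluster in these calls was not tested.

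Bdnf, which encodes brain-derived neurotrophic factor and is itself switched on by activity, had the smallest p. Its CPM in cells with and without the genes was 180 and 76.2 in placebo mouse 1, 451 and 188 in placebo mouse 5, 194 and 106 in EPO mouse 4, and 306 and 131 in EPO mouse 6. It was higher in 4 of 4 mice, by 1.09 ± 0.19 log2 units (SE). Across all genes edgeR gave it an unadjusted p of 2.1e-05 and an adjusted p of 0.116. The adjusted p was 0.030 with DESeq2 on the same 4 mice. Choosing the cells at 2000 UMIs changed which cells were compared and took in EPO mouse 2, and edgeR gave an adjusted p of 0.0003. Without the cells of shared barcodes placebo mouse 1 kept 4 cells with the genes and dropped out. The difference over placebo mouse 5 and EPO mice 4 and 6 was then 1.13 (edgeR, adjusted p = 0.054). Over all alternatives run the adjusted p lay between 0.0003 and 0.998. Nrn1, which encodes the synaptic growth protein neuritin, came second, with 475 and 160 CPM in placebo mouse 1, 471 and 318 CPM in placebo mouse 5, 412 and 153 CPM in EPO mouse 4 and 449 and 289 CPM in EPO mouse 6 (log2 difference 0.96 ± 0.19, edgeR, adjusted p = 0.216). Nrn1 was called by DESeq2 (adjusted p = 0.030) and without a filter on low counts (edgeR, adjusted p = 0.0045), but not when thinned to 2000 UMIs.

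Of the 14 delayed activity-regulated effector genes tested, 0 were called, while 5 had an unadjusted p under 0.05 and all 5 were higher in cells with the immediate early genes. These were Bdnf, Nrn1, Homer1, Rgs4 and Nptx2, where Homer1 encodes a scaffold of glutamate receptors, Rgs4 a regulator of G protein signalling, called when thinned to 2000 UMIs (edgeR, adjusted p = 0.042), and Nptx2 a secreted pentraxin of synapses. The list's median log2 difference was 0.32, against 0.00 over all genes tested, of which 6.96% had an unadjusted p under 0.05. Of 14 further immediate early genes 0 were called and 10 were above 0, with a median of 0.20. Nr4a3, the paralog of Nr4a1, was at 83.4 and 52.4 CPM, 268 and 84.8 CPM, 89.9 and 73.2 CPM, and 195 and 68.0 CPM in the same order of mice (log2 difference 1.07 ± 0.27, edgeR, adjusted p = 0.593). The other gene of that list with an unadjusted p under 0.05 was Errfi1, which encodes an inhibitor of epidermal growth factor receptor signalling (0.97 ± 0.34). Of 11 heat shock genes 0 were called and 9 were above 0, with a median of 0.18 and Hsph1 at the smallest p (0.40 ± 0.17, edgeR, adjusted p = 0.686). Of 15 regulators of the SRF and CREB arms 0 were called and 7 were above 0, with a median of -0.01, and Srf had the smallest p (0.75 ± 0.40, edgeR, adjusted p = 0.746).

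All 10 mt- genes tested were lower in cells with the immediate early genes, with a median log2 difference of -0.65. The thinning that chose these cells counted mt- UMIs, so a cell with a high mt- share kept fewer other UMIs. A lower mt- share in the chosen cells is therefore partly set by the choice, and the mt- genes restate that share. These cells had a lower median mt- share in each of the 4 mice, 8.22% against 18.8% in placebo mouse 1 and 2.56% against 5.74% in EPO mouse 6, and more UMIs, with medians of 3705 to 13916 against 3034 to 3641. They made up 20% of cluster 4 and 19.3% of cluster 8, and 3.80% of cluster 2. The part of mt- share, depth and cluster in these differences was not tested.

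**Figure D3:**
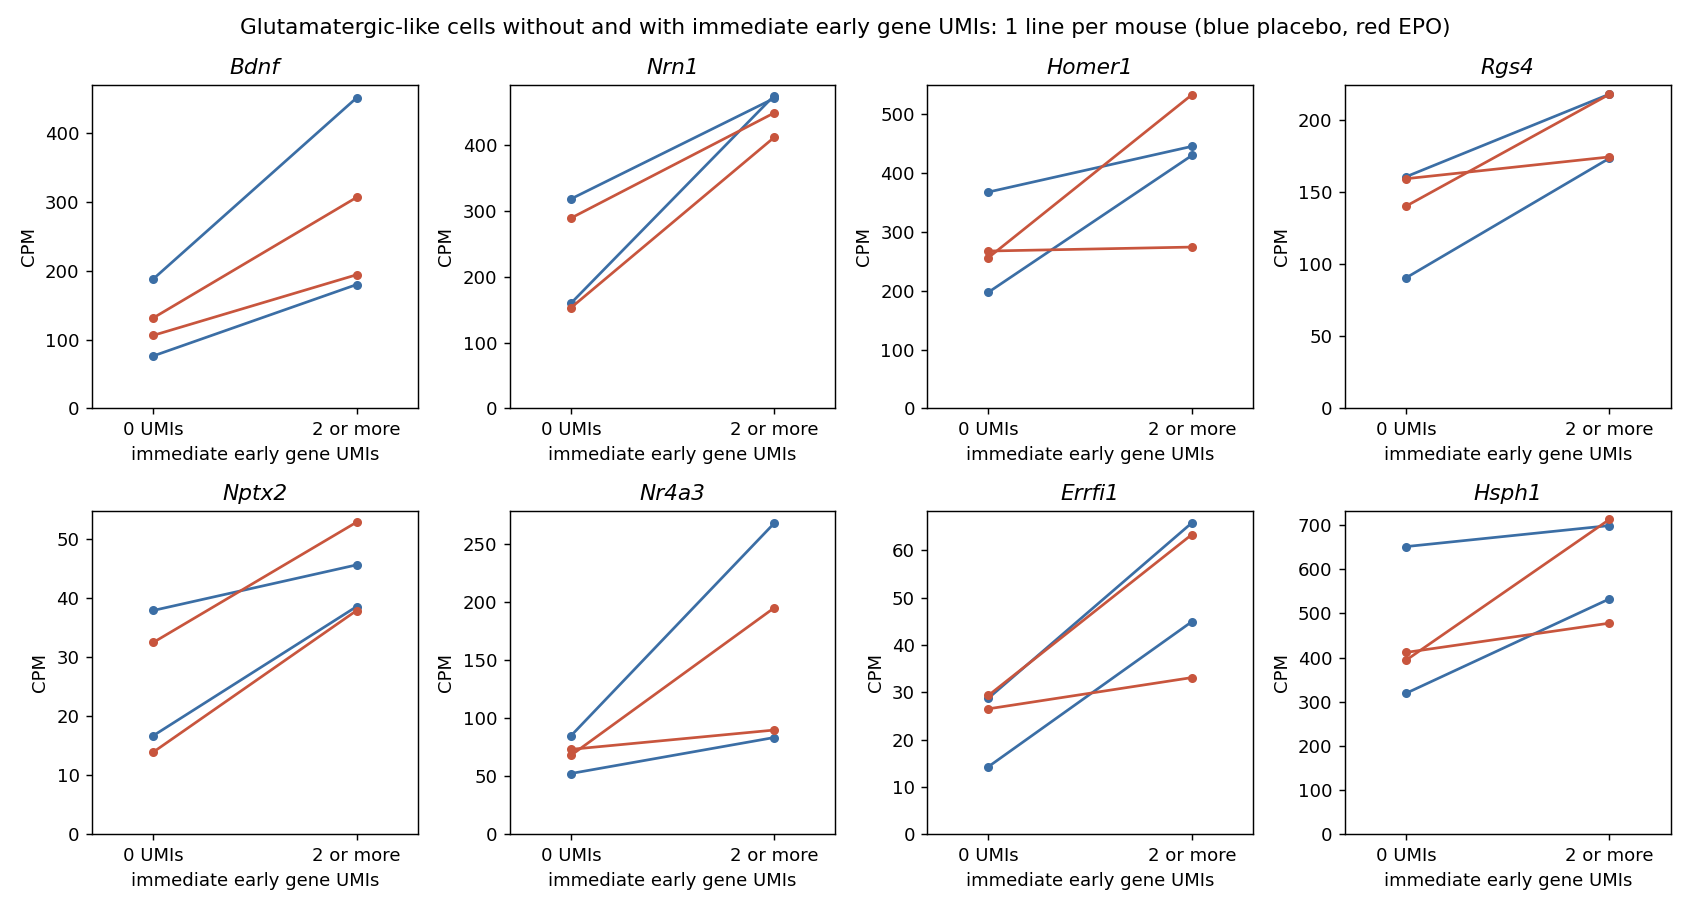
CPM (y axis) of the 8 genes of the lists with an unadjusted p under 0.05, in glutamatergic-like cells with 0 and with 2 or more UMIs of the 10 immediate early genes (x axis), with 1 line a mouse, blue for placebo mice 1 and 5 and red for EPO mice 4 and 6. Each gene is higher on the right in 4 of 4 mice, Bdnf from between 76.2 and 188 CPM to between 180 and 451 CPM.

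The third question was how the genes go with the mt- share of a cell, a common sign of damaged cells. Levels are given per 1000000 UMIs that are not mt- (non-mt- CPM), since mt- UMIs would otherwise lower every other gene. Taken over all cells, Egr1 was higher in those under 10% mt- UMIs than in those with 10 to 40% in 6 of 6 mice. It was 356 and 158 non-mt- CPM in placebo mouse 1, 174 and 132 in placebo mouse 3, 285 and 178 in placebo mouse 5, 349 and 102 in EPO mouse 2, 325 and 155 in EPO mouse 4 and 230 and 36.2 in EPO mouse 6. The log2 difference was 1.21 ± 0.73 (SD, n = 6, p = 0.031, the smallest that 6 mice allow, adjusted p = 0.156, two-sided exact permutation test over mice), and 1.15 without the cells of shared barcodes.

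Junb went the same way in 6 of 6 mice, by 0.99 ± 1.08 (n = 6, p = 0.031, adjusted p = 0.156, exact permutation), and by 0.58 without EPO mouse 6. Of the 10 genes 0 passed the adjusted threshold, which 6 mice could only have reached with several genes at the smallest p. Fos (0.74 ± 0.82), Nr4a1 (0.70 ± 1.04) and Dusp1 (0.55 ± 0.67) were higher in low-mt- cells in 5 of 6 mice, Nr4a1 by 0.33 without EPO mouse 6. Jun did not follow: it averaged 137 non-mt- CPM in low-mt- and 143 in high-mt- cells, with a log2 difference of 0.10 ± 0.83 and a higher level in low-mt- cells in 2 of 6 mice, and it was at -0.22 without EPO mouse 6. Ier2 was at -0.27 ± 0.51. The sum of the genes was higher in low-mt- cells in 5 of 6 mice, by 0.78 ± 0.90, and EPO mouse 6, with 8 UMIs in its 47 high-mt- cells, had the widest difference. Without EPO mouse 6 the mean of the sum was 0.44.

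The split held within the glutamatergic-like class for Egr1. Over the 5 mice with 10 cells on both sides it was higher in low-mt- cells in 5 of 5, by 1.26 ± 0.88 (p = 0.0625, the smallest possible, adjusted p = 0.625, exact permutation). Junb was higher in 4 of 5 mice (1.27 ± 1.33), with 0.76 without EPO mouse 6, which had no Junb UMI in its high-mt- cells of this class, and Jun was at 0.08 ± 0.86. Egr1 pooled over glutamatergic-like cells was 336 non-mt- CPM under 5% mt-, 442 at 5 to 10%, 260 at 10 to 20% and 141 at 20 to 40%. Jun over the same steps stayed between 88.5 and 116. Outside the glutamatergic-like class pooled Egr1 went the other way. It was 7.98, 27.5, 38.3 and 73.6 non-mt- CPM over these steps, from only 3, 21, 29 and 19 UMIs. The low-mt- glutamatergic-like cells were also deeper, with a median of 10061 UMIs under 5% and 2715 at 20 to 40%. The part of depth was not tested. Per cell, the summed level in glutamatergic-like cells went with mt- share at Spearman's rho between -0.16 and -0.44 in the 6 mice, a weak relation in sparse counts.

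**Figure D4:**
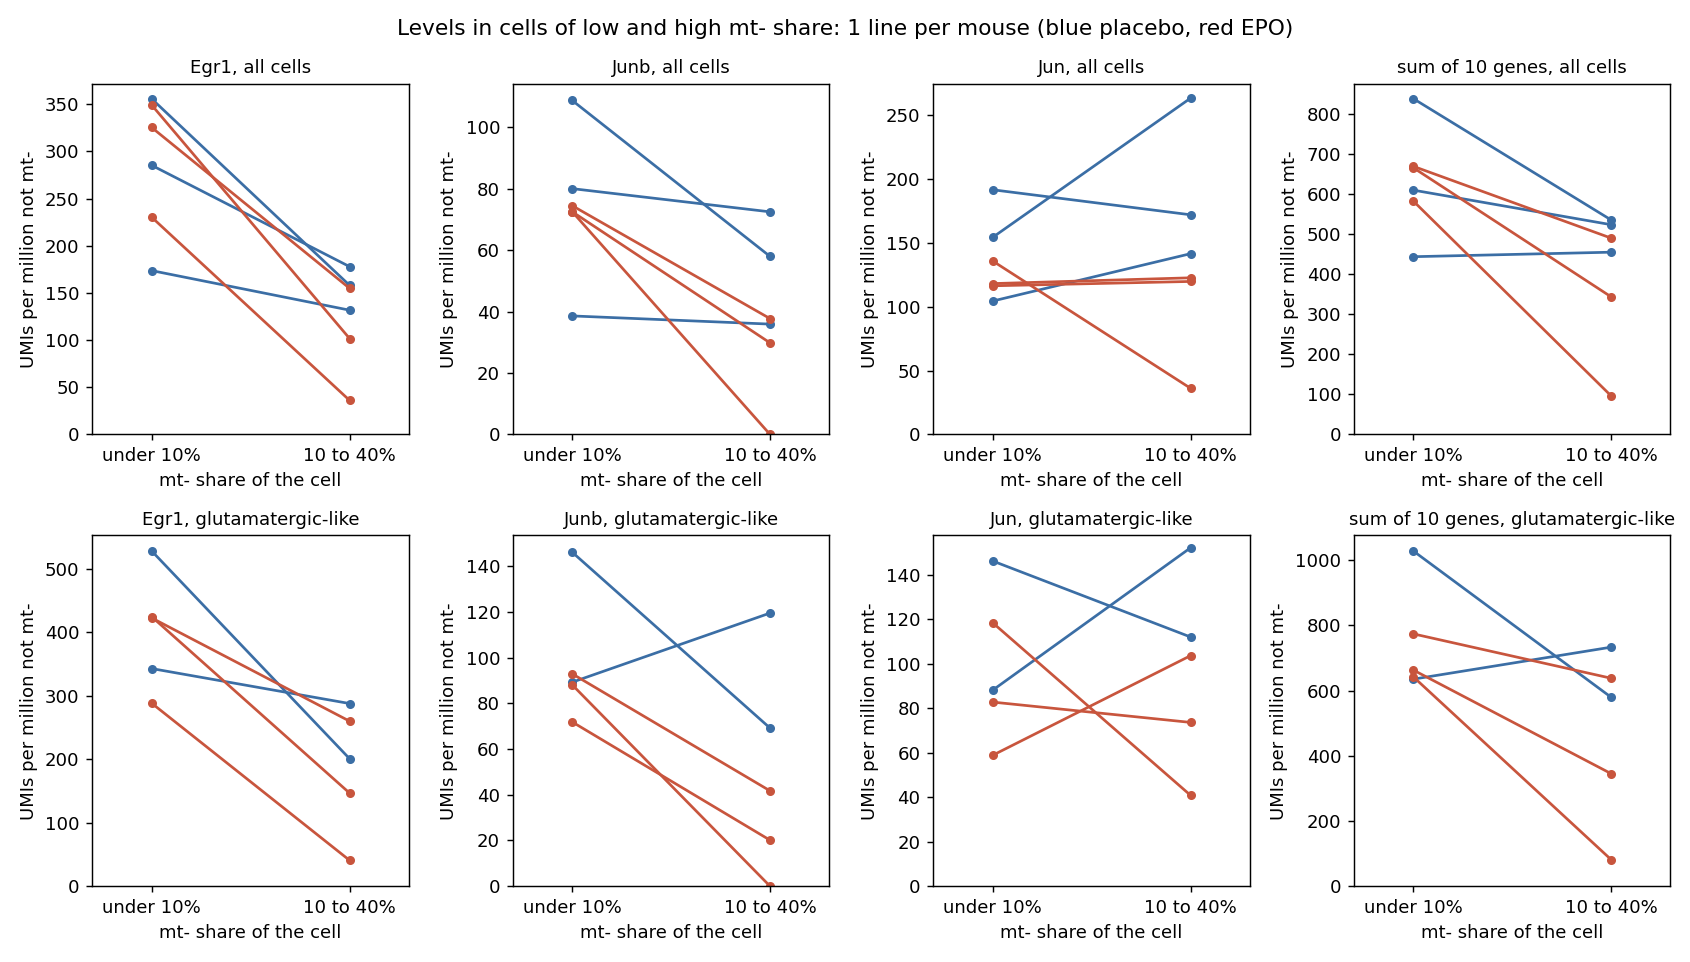
Non-mt- CPM, that is UMIs per 1000000 that are not mt- (y axis) in cells under 10% and with 10 to 40% mt- UMIs (x axis), for Egr1, Junb, Jun and the sum of the 10 genes, in all cells (top, 6 mice) and glutamatergic-like cells (bottom, 5 mice), with 1 line a mouse, blue for placebo and red for EPO. Every Egr1 line falls, from 356 to 158 non-mt- CPM in placebo mouse 1 for example, while the Jun lines cross.

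The design's main comparison is EPO with placebo. UMIs were summed per mouse and tested across all genes by edgeR. Over all cells 0 of 10551 genes tested were called at an adjusted p of 0.05 (0%), 138 had an unadjusted p under 0.05, and DESeq2 called 1 gene. All 10 immediate early genes could be tested and none was called. In glutamatergic-like cells 7 of the 10 could be tested, 0 of 8795 genes were called (0%), 153 had an unadjusted p under 0.05, and DESeq2 called 0. Without placebo mouse 5 the fit of glutamatergic-like cells called 6 genes, none of the 10, namely Apoe, Hba-a1, Hbb-bs, Hbb-bt, Mobp and Tspan2, which are known glial and blood genes.

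Egr1 was almost level between the groups. It stood at 219, 142 and 241 CPM in placebo mice 1, 3 and 5 and at 167, 230 and 211 CPM in EPO mice 2, 4 and 6, so the groups overlapped. The log2 difference, EPO minus placebo, was -0.05 ± 0.24 (SE, edgeR, adjusted p = 1.00). In glutamatergic-like cells, where the 3 placebo mice lay close together at 309 to 327 CPM and the EPO mice at 232 to 333 CPM, it was -0.26 ± 0.21 (edgeR, adjusted p = 1.00). Without the cells of shared barcodes in both mice the difference was 0.21 over all cells and -0.04 in glutamatergic-like cells, neither called.

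Jun was 157, 172 and 104 CPM after placebo and 101, 105 and 126 CPM after EPO, a log2 difference of -0.43 ± 0.26 (edgeR, adjusted p = 1.00). EPO mice 4 and 6 lay above placebo mouse 5. Within D1 the difference on the log2(CPM + 10) scale was -0.65 and within D2 it was 0.13. In glutamatergic-like cells Jun was -0.18 ± 0.29. Oligodendrocyte-like marker transcripts, which mark a Jun-bearing class, ranged from 13188 to 44048 CPM in placebo and from 13179 to 27254 CPM in EPO mice over 9 of 9 markers, and their part in the Jun values was not tested.

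Junb was 71.4, 33.7 and 72.1 CPM after placebo and 39.1, 53.5 and 66.0 CPM after EPO (-0.29 ± 0.29, edgeR, adjusted p = 1.00), and in glutamatergic-like cells, where it had the smallest p of the genes tested on this list, 95.8, 64.4 and 87.8 CPM against 37.2, 68.9 and 81.7 CPM (-0.53 ± 0.28, edgeR, unadjusted p = 0.077, adjusted p = 1.00). Both groups overlapped in each set. Arc was 31.8, 22.5 and 14.2 CPM against 13.3, 32.1 and 23.1 CPM (-0.02 ± 0.43). On the log2(CPM + 10) scale its difference was -0.66 within D1 and 0.63 within D2.

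Nr4a1 was 42.7, 7.48 and 40.5 CPM against 20.5, 46.5 and 43.6 CPM (0.05 ± 0.42), with placebo mouse 3 at 2 UMIs. Fos was 19.4, 3.74 and 31.0 CPM against 14.2, 20.5 and 23.1 CPM (-0.18 ± 0.42). Fosb was 7.76, 7.48 and 14.2 CPM against 1.78, 8.37 and 7.05 CPM, a log2 difference of -0.82 ± 0.55 (edgeR, adjusted p = 1.00) from 64 UMIs in all. It ran from -1.23 without EPO mouse 4 to -0.43 without placebo mouse 5, and was -1.17 with the D number as block (edgeR, unadjusted p = 0.039, adjusted p = 1.00). Dusp1 (0.49 ± 0.50), Btg2 (0.32 ± 0.54) and Ier2 (-0.06 ± 0.56) rested on 81 to 104 UMIs each, and leaving out 1 mouse moved Btg2 to as much as 1.17 (without placebo mouse 1) and Dusp1 to 0.99 (without placebo mouse 5). Without the cells of shared barcodes in both mice, the differences over all cells were -0.03 for Junb, 0.34 for Nr4a1, -0.41 for Jun, -0.06 for Fos, 0.09 for Arc, 0.49 for Dusp1, 0.40 for Btg2 and -0.12 for Ier2, and Fosb could not be tested. In glutamatergic-like cells they were -0.23 for Junb, 0.67 for Fos, 0.03 for Jun and 0.09 for Nr4a1. None was called. Of the 10 genes, 0 had groups that did not overlap, over all cells and in glutamatergic-like cells, where 6.26% and 6.45% of all genes tested did not overlap.

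The standard errors, 0.24 for Egr1 and 0.26 for Jun but 0.54 to 0.56 for Btg2, Fosb and Ier2, set what could be detected. Astrocyte-like and oligodendrocyte-like cells were the other classes with at least 10 cells in every mouse. Jun alone could be tested in each, at -0.39 and -0.06 log2 units, where 0 of 1439 (0%) and 0 of 1679 (0%) genes were called and 52 and 31 had an unadjusted p under 0.05.

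**Figure D5:**
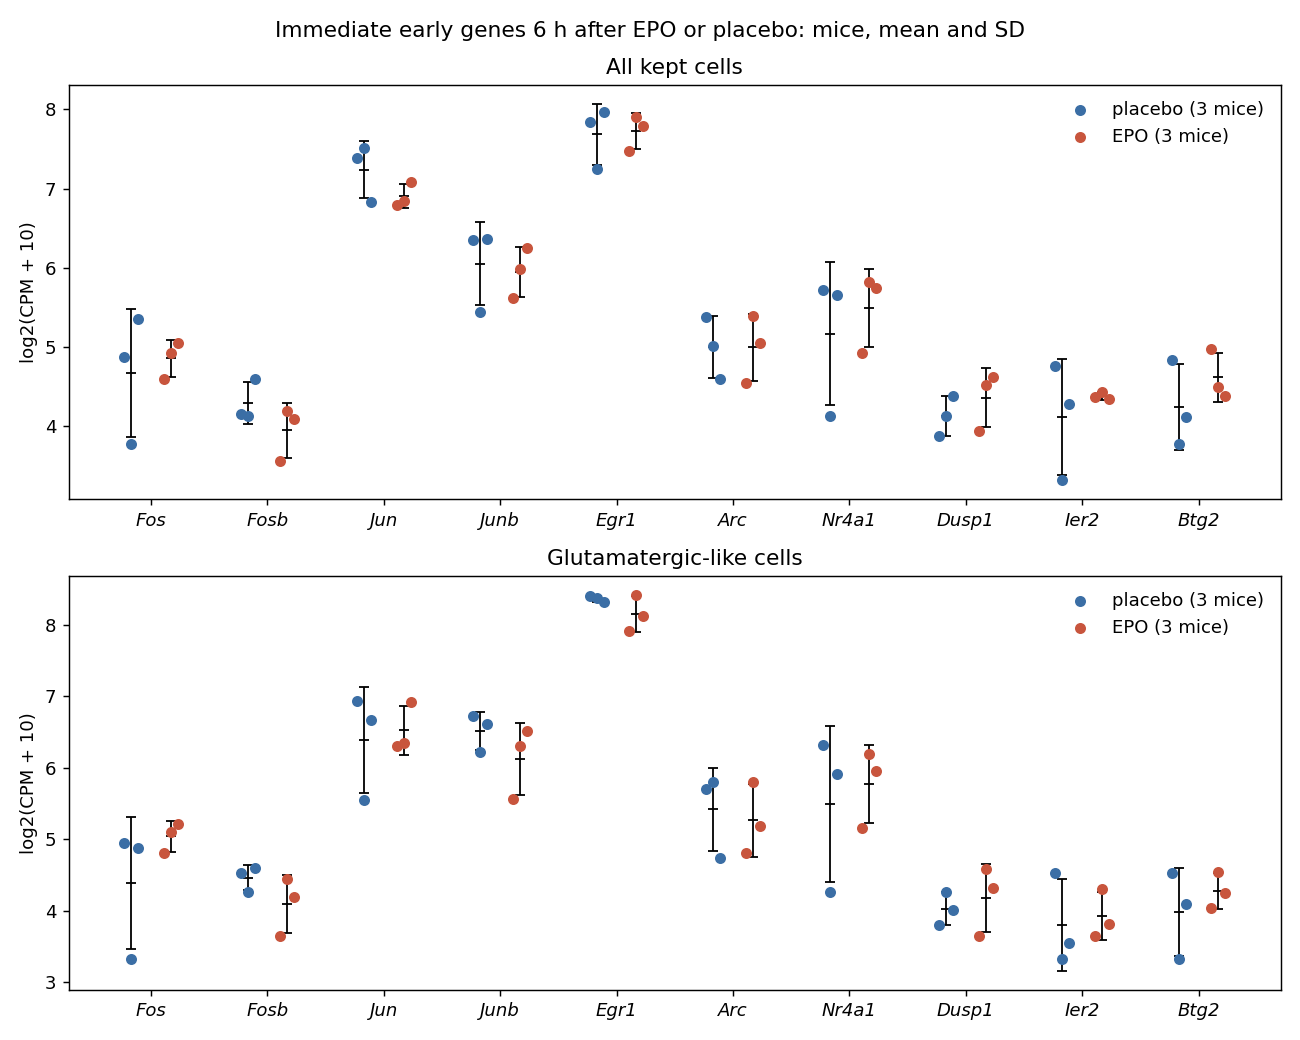
Level of each gene as log2(CPM + 10) (y axis) in placebo (blue) and EPO (red) mice, 1 point a mouse, with the mean and SD of 3 mice in black, over all kept cells (top) and glutamatergic-like cells (bottom). The points of the 2 groups overlap for each of the 10 genes, with Egr1 between 142 and 241 CPM in the upper panel.

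The lists of related genes showed no call either. Of 33 further immediate early genes tested over all cells 0 were called and 1 had an unadjusted p under 0.05, Tiparp, which encodes a mono-ADP-ribosyltransferase (-0.54 ± 0.24, edgeR, adjusted p = 1.00). The list's median was -0.07, against -0.01 over all genes tested. Of 21 delayed activity-regulated effector genes 0 were called with a median of -0.00, and Vgf, a neurosecretory precursor, had the smallest p. Its CPM was 36.5, 37.4 and 69.4 in placebo and 70.3, 63.2 and 92.9 in EPO mice (0.56 ± 0.28, edgeR, adjusted p = 1.00). Of 23 SRF and CREB arm regulators 0 were called (median -0.01, smallest p for Mkl1 at 0.51 ± 0.32), and of 16 heat shock genes 0 (median -0.04, smallest p for Hspb1 at -1.02 ± 0.51). In glutamatergic-like cells the lists gave 0 of 26, 0 of 19, 0 of 19 and 0 of 12 calls in the same order, with the smallest p for Tiparp (-0.84 ± 0.31), Bdnf (-0.46 ± 0.22), Ep300 (-0.39 ± 0.28) and Hspa5 (-0.15 ± 0.21). Outside the lists the smallest p belonged to Rarres2 over all cells (-2.58 ± 0.47, edgeR, adjusted p = 1.00) and to Lxn in glutamatergic-like cells (1.37 ± 0.27, edgeR, adjusted p = 1.00). Rarres2 marks ependymal cells, and the 5 ependymal markers summed to 253 CPM in placebo mouse 5 and to 9.78 to 44.9 CPM in the other mice. In astrocyte-like cells the smallest p was that of Thrsp (1.07 ± 0.33), and in oligodendrocyte-like cells that of Cst3 (-1.04 ± 0.31), neither called. In astrocyte-like and oligodendrocyte-like cells 1 to 10 genes of each list could be tested, and 0 were called.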

How the data were processed

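Placebo- and EPO-treated CA1 cells were measured by Drop-seq. The authors deposited raw UMI counts per gene and barcode, without normalization, 1000 barcodes a mouse. The submitters' processing notes name mm10, STAR 2.4.0 and bcl2fastq 2.15, and the paper's methods kept cells of over 1000 genes. A gene given as missing in a whole mouse was set to 0. Doublets were not called and were kept. A barcode was treated as a cell if it held over 500 but no more than 8000 genes, with mt- UMIs not exceeding 40%.

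Cells were clustered in Seurat 5.3.0 (R 4.3.3; 10000 UMIs per cell, 1000 variable genes without the 10 genes and the activity lists, integration of the treatments on 20 dimensions, resolution 1). A cluster took the class with the highest mean log2 fold of its markers, with at least 3 markers in 10% of cells, and blood markers were left out of naming. This scoring was chosen after seeing the data. CPM is UMIs per 1000000 of a sum. Sums per mouse were tested in edgeR 4.0.16 (quasi-likelihood, TMM, minimum count of 10, Benjamini-Hochberg at 5%), with DESeq2 1.42.0 and limma 3.58.1 as alternatives. Within-mouse differences used exact sign-flip permutation tests with a pseudocount of 10 CPM. Thinning drew each cell to 1000 UMIs 20 times, leaving out 89 shallower cells. Fits and ratios were tested on simulated data. The labels number the mice but do not say whether libraries were prepared together. Intervals are exact (Clopper-Pearson), and a count of 0 allows up to 3 counts.

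The members and gene lists were chosen with earlier results of these data known. Genes named are the 10 members, per fit the gene with the smallest p where none passed, per list its called genes or else the one with the smallest p, the 10 genes most like the summed level (mean of at least 50 CPM), and 4 leading genes a cluster (in at least 25% of its cells). Genes of the lists with an unadjusted p under 0.05 were named after their values were seen. Sequences come from RefSeq.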

Additional observations from a re-analysis of the deposited data

Results flagged for a closer look

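The genes were also present in barcodes that the filter left out. Their summed level was 242 CPM in the 4292 barcodes with 500 genes or fewer and 145 CPM in the 73 barcodes with over 40% mt- UMIs, above the 3 counts that a count of 0 allows, compared with 521 CPM in the kept cells. Groups of 3 mice were too small to look for a mouse that stands apart. In the barcodes with 500 genes or fewer Jun led with 39.2% of the 342 UMIs and Egr1 had 30.1%, whereas in the kept cells Egr1 had 41.2% and Jun 22.9%.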

How the results depend on the processing

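No call on an immediate early gene between EPO and placebo changed under any alternative. The count of cells with 2 or more of the genes moved with the depth of thinning, which also changed the cells counted. The mean ratio of observed to expected was 1.38 at 500 UMIs and 0.993 at 2000 UMIs. Without filter on low counts 21 genes were called between EPO and placebo over all cells and 12 in glutamatergic-like cells, and DESeq2 called 1 over all cells; in glutamatergic-like cells 0 to 6 were called without replicate, the 6 without placebo mouse 5. In cells with the genes against cells without, 12 genes were called when thinned to 2000 UMIs (with EPO mouse 2 taken in), 28 without filter, 2 by DESeq2 and 1 on the thinned counts. The cause was not tested. Leaving out each mouse, the summed glutamatergic-like against oligodendrocyte-like difference ran from 1.21 to 1.39, the ratio of co-detection from 1.14 to 1.2, the summed mt- difference from 0.439 to 0.942 in all and from 0.452 to 1.21 in glutamatergic-like cells, and every other count of calls stayed at 0. Of 1043 alternative values, 948 kept their direction and side of the threshold, 8 came past the threshold (of Rarres2, Lxn, Bdnf and Nr4a3, with Nrn1 and Rgs4 called beside them in some fits), 10 counts or ratios moved as given above and 77 changed sign, each of these not called. No paired analysis was possible because the groups share no replicate numbers. Alternatives without cells of shared barcodes were chosen after seeing the data.

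The log2 differences between EPO and placebo that changed sign over all cells were, with limma, Fos 0.375 and Ier2 0.843; with at most 20% mt- UMIs, Egr1 0.0168 and Arc 0.273; without shared barcodes, Egr1 0.205 and Arc 0.0917; with library totals, Arc 0.0391; without filter, Arc 0.0115; above 1000 genes, Arc 0.0987 and Ier2 0.0233; and with the D number as block, Arc 0.0392, Nr4a1 -0.179 and Ier2 0.0155. In glutamatergic-like cells these were, with limma, Jun 0.1001 and Nr4a1 0.337; without shared barcodes, Jun 0.0275, Arc 0.143 and Nr4a1 0.0859; and for Arc 0.0389 with library totals, 0.00333 without filter, 0.132 above 1000 genes, 0.363 with at most 20% mt- UMIs and 0.0991 with the D number block. Leaving out each mouse, the range over all cells was -0.391 to 0.494 for Arc, -0.0891 to 1.17 for Btg2, -0.216 to 0.0475 for Egr1, -0.413 to 0.2501 for Fos, -0.318 to 0.624 for Ier2 and -0.194 to 0.326 for Nr4a1. It was -0.577 to 0.553 for Arc, -0.312 to 0.00749 for Hspa5, -0.345 to 0.107 for Jun and -0.506 to 0.205 for Nr4a1 in glutamatergic-like cells, -0.136 to 0.413 for Mbnl2 and -0.144 to 0.757 for Rhob in astrocyte-like cells, and -0.105 to 0.0294 for Jun in oligodendrocyte-like cells.

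Between the highest and the next class, Nr4a1 was at -0.365 when cells were assigned by markers and Fosb at 0.00757 with a pseudocount of 100. For the mt- split over all cells, a threshold of 5% gave Jun -0.615, Dusp1 -0.0277 and Btg2 -0.0227, a threshold of 20% gave Fosb -0.0191 and Ier2 0.493, and leaving out shared barcodes gave Arc -0.00911. In glutamatergic-like cells, 5% gave Fosb 0.487, Jun -0.153, Nr4a1 -0.0396, Dusp1 -0.245 and Ier2 -0.309, and 20% gave Jun -0.416 and Ier2 -0.119. All UMIs as denominator gave Btg2 0.0672, more than 1000 genes Jun -0.00337, a pseudocount of 1 Fosb 0.0191 and Btg2 0.245, and leaving out shared barcodes Fosb 0.0958, Jun -0.135 and Arc -0.349. Leaving out each mouse, Jun ran from -0.216 to 0.263 over all cells, and in glutamatergic-like cells Arc from -0.248 to 0.429, Btg2 from -0.394 to 0.324, Fosb from -0.452 to 0.185, Jun from -0.235 to 0.280 and Nr4a1 from -0.157 to 0.678.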
